A study of Mus musculus with 9 samples.

Results

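Nuclear genes of the mitochondrial respiratory chain and ATP synthase were followed from dividing cortical progenitors to neurons. The members were all genes of the deposited table whose symbol begins with Nduf, Uqcr, Cox4 to Cox8 or Atp5, or is Sdha, Sdhb, Sdhc or Sdhd. This rule found 88 of 21210 genes: 36 subunits of complex I, 4 complex I assembly factors, 4 subunits of complex II and 8 of complex III. The rest were 16 of complex IV, 16 of ATP synthase and 4 other genes that match the naming pattern. Of the 88 members, 82 passed the filter on low values, set at 10 or more in 3 or more libraries. The other 6 were Cox4i2, Ndufa4l2, Atp5g2, Atp5l, Atp5l2 and Atp5l-ps1. The name of subunit does not hold for Ndufaf1, Ndufaf2, Ndufaf3 and Ndufaf4, which help to build complex I without staying in it. Cox4nb, Atp5s, Atp5sl and Atp5l-ps1 were not counted as subunits here, and both sets are described apart.

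The respiratory chain sits in the inner mitochondrial membrane. Complex I takes electrons from NADH, complex II takes them from succinate as an enzyme of the tricarboxylic acid cycle, complex III passes them to cytochrome c, and complex IV passes them to oxygen. Complexes I, III and IV pump protons, and ATP synthase uses the proton gradient to make ATP. Mitochondrial DNA encodes core subunits of complexes I, III, IV and ATP synthase, whereas complex II is encoded by nuclear genes alone. In the developing cortex, neural stem cells are known for a high use of glycolysis, and neurons for their dependence on oxidative phosphorylation.

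The promoters of 5 genes are shown: Sdha, Sdhb and Sdhd of complex II, and the complex I assembly factors Ndufaf3 and Ndufaf4. Ndufaf3 and Ndufaf4 changed in opposite directions. Sdhb is shown though it did not fall in neurons as Sdha and Sdhd did. Sdhc fell as well but had no RefSeq promoter entry. The sequences are from RefSeq on GRCm38.p6 and cover the 250 bases before the annotated start, written 5′ to 3′ on the strand of the gene. Their positions are chr13:74350241-74350490 on the minus strand for Sdha, chr4:140961021-140961270 on the plus strand for Sdhb, and chr9:50603850-50604099 on the minus strand for Sdhd. Ndufaf3 lies at chr9:108567437-108567686 on the minus strand and Ndufaf4 at chr4:24897833-24898082 on the plus strand. Capitals mark exact matches to CCGGAAG, a core sequence of the ETS factor GABP, or to the palindrome bound by NRF1, which is GCGCA followed by its reverse complement.
Sdha: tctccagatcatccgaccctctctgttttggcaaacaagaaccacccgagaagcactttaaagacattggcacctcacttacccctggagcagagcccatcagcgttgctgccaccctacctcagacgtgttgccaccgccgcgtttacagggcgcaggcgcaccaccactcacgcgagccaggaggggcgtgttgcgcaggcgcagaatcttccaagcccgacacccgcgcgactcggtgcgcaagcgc
Sdhb: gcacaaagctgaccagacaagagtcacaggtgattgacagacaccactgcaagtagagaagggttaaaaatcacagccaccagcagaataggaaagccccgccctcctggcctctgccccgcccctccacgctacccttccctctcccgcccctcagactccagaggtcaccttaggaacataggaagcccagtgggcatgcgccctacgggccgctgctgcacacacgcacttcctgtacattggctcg
Sdhd: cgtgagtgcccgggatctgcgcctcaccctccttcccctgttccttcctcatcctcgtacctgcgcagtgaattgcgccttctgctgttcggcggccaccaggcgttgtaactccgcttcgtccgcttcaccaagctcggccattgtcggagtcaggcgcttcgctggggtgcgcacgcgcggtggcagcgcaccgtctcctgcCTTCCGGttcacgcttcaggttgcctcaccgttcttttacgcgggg
Ndufaf3: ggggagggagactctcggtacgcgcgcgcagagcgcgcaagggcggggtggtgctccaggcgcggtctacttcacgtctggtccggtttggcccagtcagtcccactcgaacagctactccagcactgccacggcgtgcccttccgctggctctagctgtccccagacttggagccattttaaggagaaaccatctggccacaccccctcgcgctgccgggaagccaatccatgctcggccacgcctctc
Ndufaf4: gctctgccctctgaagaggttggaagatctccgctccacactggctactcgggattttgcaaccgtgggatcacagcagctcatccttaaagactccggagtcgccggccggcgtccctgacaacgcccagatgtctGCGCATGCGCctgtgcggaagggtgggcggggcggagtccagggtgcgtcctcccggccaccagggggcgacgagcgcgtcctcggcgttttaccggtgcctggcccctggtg

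GABP, NRF1 and YY1 are transcription factors known to act on many nuclear genes of mitochondrial proteins. RefSeq held a promoter entry for 69 of the 88 members. Both strands of the 300 bases from 250 before to 50 after the start were searched, and overlaps between motifs were allowed. The NRF1 palindrome was found in 6 of 69 members (8.7%) and in 1.07% of 27025 genes with an entry. The 6 were Atp5g2, Atp5k, Cox6a1, Ndufa11, Ndufaf4 and Uqcrc1. CCGGAAG was found in 17 of 69 members (24.6%) against 9.93% of all entries, and AAGATGGC, a core sequence of YY1, in 9 of 69 (13.0%) against 3.19%. Of the 5 genes shown, Sdhd held CCGGAAG before its annotated start on the opposite strand. The end of the Sdhd window was not found in the gene's own transcripts, unlike for the other genes shown, so this start is uncertain. Sdhb held CCGGAAG after its start and outside the stretch shown, and Ndufaf4 held the NRF1 palindrome. The promoters of Sdha and Ndufaf3 held none of the 3. These matches are descriptions of the letters.

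The libraries came from C57BL/6 embryos of both reporters, Btg2 and Tubb3, at embryonic day 14.5, with meninges and ganglionic eminences taken off before dissociation of the lateral cortex. Proliferating progenitors were the cells negative for the red Btg2 reporter, differentiating progenitors were the cells positive for it, and neurons were the cells positive for the green Tubb3 reporter, with 3 libraries each. Green is the colour given for Btg2 in the genotype label and red in the titles, which the groups follow. Btg2 is an antiproliferative gene that marks progenitors about to divide into neurons, and Tubb3 is a neuronal tubulin. Each library held poly-A RNA of cells pooled from several embryos of different litters, so a gate is a mixture of cell types and not a pure population.

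Values are the authors' normalised read counts, whose sums were 17531558 to 18201880 in proliferating progenitors, 18420135 to 19077173 in differentiating progenitors and 21442620 to 22076409 in neurons. Markers followed the labels: the summed radial glia markers (8 genes) lay at 104199 to 122277, 46275 to 69360 and 5732 to 7096 in the 3 groups, and the summed neuron markers (7 genes) at 2441 to 6507, 32711 to 39829 and 138167 to 167925. Libraries of replicate 1 stood apart from replicates 2 and 3 in all groups, and equal replicate numbers paired the samples. Changes are given as log2 changes on the log2(value + 1) scale ± SE, with p-values from limma adjusted by Benjamini-Hochberg over 15828 genes and a threshold of 0.05. Levels are given as mean ± SD (n = 3) of the normalised counts.

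Respiratory chain genes moved little while much of the transcriptome moved. From proliferating to differentiating progenitors, 0 of 82 members rose, where 13.8% of all genes tested rose, and 2 fell, Atp5g1 and Ndufaf4, where 11.1% of all genes fell. At an unadjusted p under 0.05, limma gave 0 higher and 5 lower (18.3% and 17.2% of all genes), and the authors' deposited table gave 0 and 0 at its own adjusted p under 0.05 (10.1% and 8.01% of all genes). From differentiating progenitors to neurons, 5 members rose (27.6% of all genes rose) and 4 fell (26.4% of all genes fell). From proliferating progenitors to neurons, 4 members rose (32.2% of all genes) and 13 fell (31.1% of all genes). The 4 that rose were Ndufaf3, Ndufb9, Ndufa8 and Ndufa11, all of complex I or its assembly. The 13 that fell came from complexes I, II and IV, ATP synthase, the assembly factors and the other genes of the naming pattern. None came from complex III.

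In the fit that ignores the pairing, narrow intervals around a small change were more frequent among the members than among all genes. There they held for a majority of members only between the progenitor groups. These intervals include the differences between replicate numbers, and intervals from a paired fit were not counted. The 95% interval of the change from proliferating progenitors to neurons lay within 1.5-fold in either direction for 38 of 82 members (46.3%), against 16.9% of all genes. For the step from proliferating to differentiating progenitors this held for 58 members (70.7%) against 34.3%, and for the step to neurons for 39 (47.6%) against 21%. Members had a median SE of 0.158 on the log2 scale, and all genes of 0.184. The median log2 change of the members was -0.08, 0.09 and 0.02 in the order of the comparisons, beside -0.02, -0.01 and -0.02 for all genes. With 1 library left out, the members' median ranged from -0.16 (without differentiating progenitor replicate 2) to -0.02 (without proliferating progenitor replicate 2) between the progenitor groups, and from 0.03 (without differentiating progenitor replicate 1 or neuron replicate 2) to 0.15 from differentiating progenitors to neurons. From proliferating progenitors to neurons it ranged from -0.05 to 0.09, and it was below 0 without proliferating progenitor replicate 1 or 3 or neuron replicate 2 or 3. A change of at least 1.5-fold between proliferating progenitors and neurons was seen in 1 member upward (28.1% of all genes) and 5 downward (29.9% of all genes). The libraries of neurons and proliferating progenitors did not overlap in 7 members upward (34.1% of all genes) and 15 downward (33.5%), and at an unadjusted p under 0.05 limma gave 6 and 17 (33.6% and 32.9%). For neurons and differentiating progenitors there was no overlap in 6 members upward (31.2%) and 8 downward (29.5%). Replicate by replicate, 31 members were lower in differentiating than in proliferating progenitors in all 3 pairs (34.7% of all genes) and 5 were higher (33.4%), while from proliferating progenitors to neurons 22 were higher in all 3 pairs (42.4%) and 25 lower (43.3%).

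**Figure D1:**
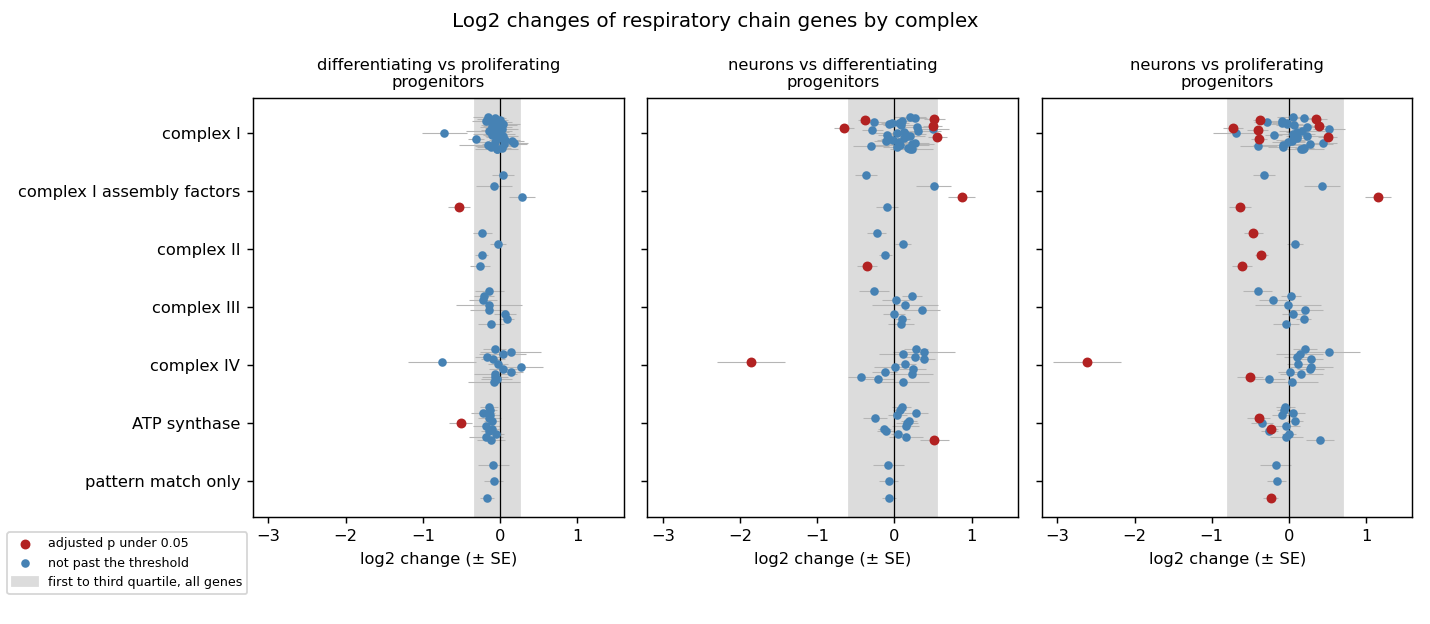
Log2 change ± SE of each tested member (points) in the 3 comparisons, by complex, with grey bands for the range from the first to the third quartile of all genes tested. Most points lie inside the band; red points passed an adjusted p of 0.05, and 3 of the 4 members of complex II are red on the left of 0 in the comparison of neurons with proliferating progenitors.

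These counts depend on the pairing and on the scaling. With the replicate number as a block in limma, 2 members rose and 15 fell between the progenitor groups (24% and 22% of all genes), 26 rose and 13 fell to neurons from differentiating progenitors (35.8% and 35.5%), and 18 rose and 22 fell between proliferating progenitors and neurons (38.7% and 39.5%). With each library scaled to the same total, the median of all genes shifted to -0.09, -0.22 and -0.30, and the members' medians to -0.15, -0.12 and -0.27. The sign of the member medians for both comparisons with neurons thus turned with this scaling, while their distance from the all-gene median went from 0.11 to 0.10 for the step from differentiating progenitors and was 0.04 under both scalings for the other. In that scaling, 30 members fell and 1 rose in neurons against proliferating progenitors (41.7% and 24.7% of all genes), and the share of calls that were higher went from 50.9% to 37.1% over all genes. From differentiating progenitors to neurons, 2 members rose and 17 fell (21.4% and 35.3% of all genes), and the share of higher calls over all genes went from 51.1% to 37.7%.

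Sums over the members show the same dependence. The 88 members together gave 109612, 128554 and 108632 normalised counts (proliferating), 100067, 120509 and 102773 (differentiating) and 102989, 125921 and 116733 (neurons), and the 3 groups overlapped. As a share of each library's total, the members gave 6252, 7063 and 6172 per 1000000 counts (proliferating), 5432, 6317 and 5523 (differentiating) and 4768, 5704 and 5444 (neurons). On that scale the neuron libraries all lay below the proliferating progenitor libraries. In bulk samples, fewer cells of a type and less RNA per cell cannot be told apart, in these sums or in any single gene below.

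Complex II showed a fall in 3 of its 4 genes between proliferating progenitors and neurons, where 31.1% of all genes fell. Sdha, the flavoprotein that oxidises succinate, is the member of complex II with the highest level per length, at 1336 normalised counts per kb in proliferating progenitors. Sdha stood at 4507, 5964 and 5096 (proliferating), 4182, 4836 and 4187 (differentiating) and 3360, 4117 and 3810 (neurons). All neuron libraries lay below all libraries of either progenitor group. Its mean fell from 5189 ± 733 to 3762 ± 381 between proliferating progenitors and neurons (log2 change -0.46 ± 0.12, adjusted p = 0.0092).

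Sdhc and Sdhd anchor the complex in the membrane and hold its ubiquinone site. Sdhd stood at 1326, 1228 and 1063 (proliferating), 1151, 963 and 911 (differentiating) and 888, 753 and 723 (neurons). No neuron library reached a progenitor library, and the progenitor groups overlapped. Its change from proliferating progenitors to neurons was -0.61 ± 0.13 (adjusted p = 0.00255), and from differentiating progenitors to neurons it was -0.35 ± 0.13 (adjusted p = 0.0448), a call that was lost in 8 of 19 alternatives (log2 change from -0.57 to -0.25, adjusted p up to 0.145). Sdhc stood at 1557, 1599 and 1368 (proliferating), 1278, 1309 and 1239 (differentiating) and 1105, 1227 and 1194 (neurons). The groups were fully separated, highest in proliferating progenitors and lowest in neurons, and the change between these was -0.36 ± 0.09 (adjusted p = 0.00553).

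Sdhb, the iron-sulphur subunit between the flavoprotein and the membrane anchor, did not share these values. It stood at 1544, 1686 and 1396 (proliferating), 1425, 1700 and 1407 (differentiating) and 1572, 1666 and 1639 (neurons), and all groups overlapped. Its change from proliferating progenitors to neurons was 0.08 ± 0.10 (adjusted p = 0.534, 95% interval -0.15 to 0.31). The median log2 change of the 4 genes was -0.24, -0.17 and -0.41 in the order of the comparisons, beside -0.02, -0.01 and -0.02 over all genes. Sdha, Sdhc and Sdhd kept the fall between proliferating progenitors and neurons in all 19 alternatives, replicates 2 and 3 alone and both other scalings included. Median-ratio scaling hardly moved the values, with a median over all members of 0.0227 beside 0.0214. In the authors' deposited table, Sdha (adjusted p = 0.022) and Sdhd (0.0041) passed in this comparison and Sdhc (0.14) did not. With the replicate block, these 3 genes also passed between the progenitor groups, where 0 of 4 passed without it.

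**Figure D2:**
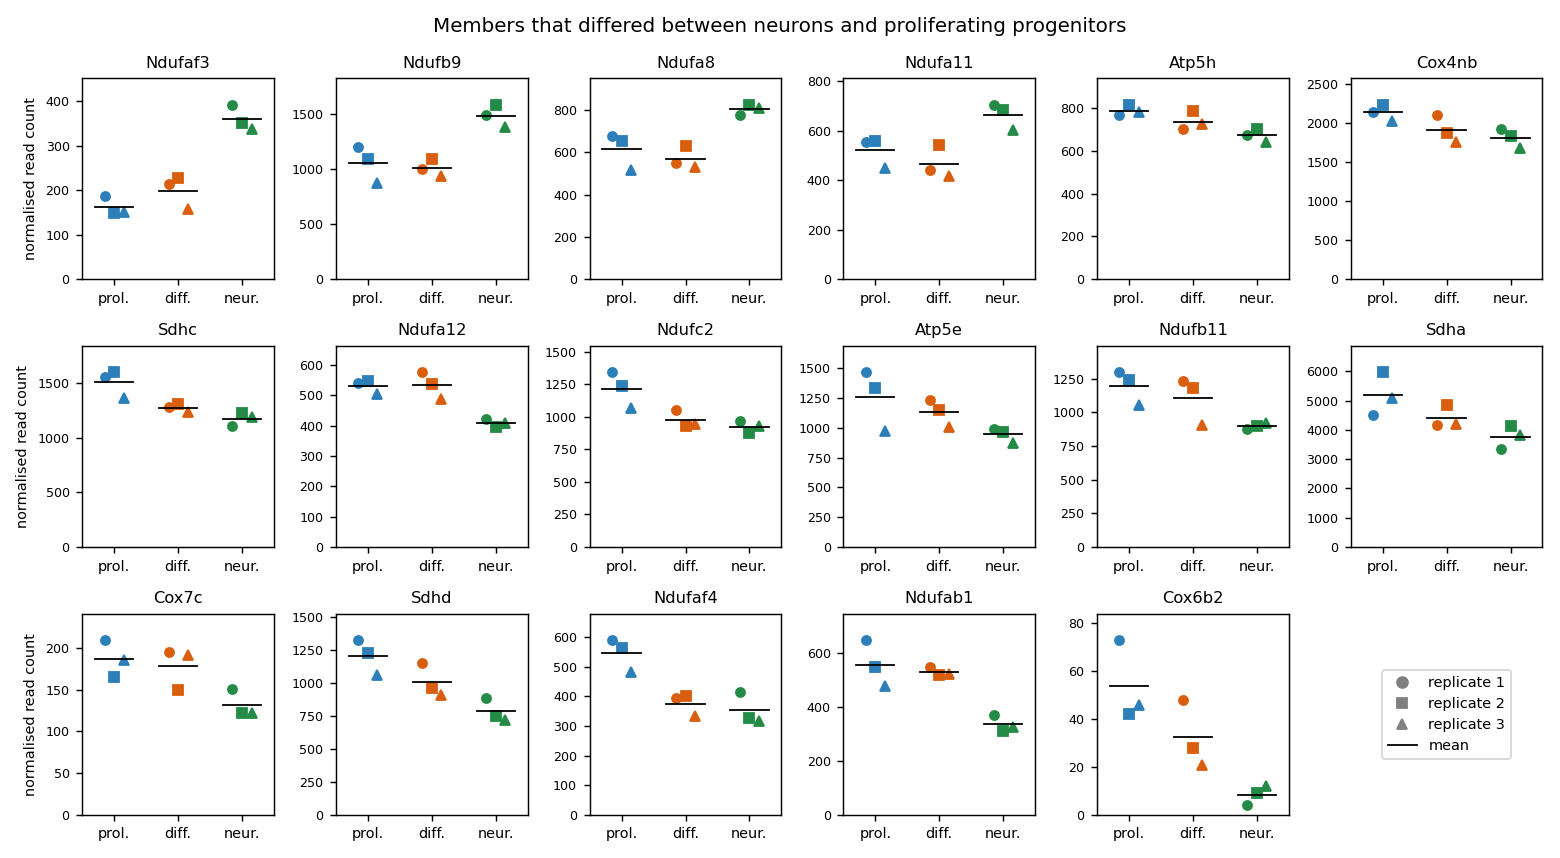
Normalised read counts in each library (symbols by replicate, bars for group means) of the 17 members that differed between neurons and proliferating progenitors, with each axis from 0. Ndufaf3, Ndufb9, Ndufa8 and Ndufa11 were higher in neurons; Cox6b2 fell from 53.7 ± 16.9 to 8.33 ± 4.04, and the other 12 fell within a smaller range.

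Among the complex I assembly factors, Ndufaf3 and Ndufaf4 changed in opposite directions. Both proteins are known to bind each other in an early assembly intermediate of complex I. Ndufaf3 stood at 186, 149 and 150 (proliferating), 213, 227 and 157 (differentiating) and 392, 351 and 338 (neurons). Every neuron library was above every progenitor library, and the progenitor groups overlapped. The rise to neurons was 1.16 ± 0.17 from proliferating progenitors (adjusted p = 0.000261) and 0.87 ± 0.17 from differentiating progenitors (adjusted p = 0.002), and both calls held in all 19 alternatives.

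Ndufaf4 stood at 590, 564 and 483 (proliferating), 395, 400 and 333 (differentiating) and 414, 328 and 318 (neurons). It was lower in every differentiating progenitor and neuron library than in any proliferating progenitor library, and the differentiating progenitors and neurons overlapped. Its fall was already present between the progenitor groups (-0.54 ± 0.14, adjusted p = 0.0235), where leaving out 1 library lost the call in 3 of 9 fits, and between proliferating progenitors and neurons it was -0.63 ± 0.14 (adjusted p = 0.00358). Ndufaf1, which binds the membrane arm intermediate, had means of 197 ± 9.61, 203 ± 13.9 and 158 ± 22.8, and its change to neurons from differentiating progenitors was -0.37 ± 0.14 (adjusted p = 0.0543, and 0.0288 with the replicate block). Ndufaf2, the assembly factor with the highest level per length, stood at 266, 304 and 311 (proliferating), 215, 376 and 263 (differentiating) and 309, 503 and 393 (neurons), and its groups overlapped. With the replicate block, Ndufaf2 rose from differentiating progenitors to neurons (adjusted p = 0.00428).

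Complex I had 36 tested subunits, of which 3 rose and 4 fell between proliferating progenitors and neurons (32.2% and 31.1% of all genes), and 9 rose and 8 fell with the replicate block (38.7% and 39.5%). All 7 called without the block are accessory subunits, which surround the catalytic core and are needed for its stability. Accessory subunits make up 29 of the 36 tested. With the block, the core subunits Ndufv1 (adjusted p = 0.0029) rose and Ndufs7 (0.00227) fell in this comparison. The 29 accessory subunits had median log2 changes of -0.05, 0.12 and 0.06 in the order of the comparisons. The 7 core subunits tested had medians of -0.05, 0.04 and 0.04.

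The 3 subunits that rose without the block belong to the membrane arm, as does Ndufc2, which fell. With the block, Ndufa9, Ndufa10, Ndufb8, Ndufb10, Ndufs4 and Ndufv1 also rose between proliferating progenitors and neurons, so rising subunits are not confined to that arm. Ndufb9, the complex I gene with the highest level per length, stood at 1200, 1090 and 876 (proliferating), 1001, 1091 and 937 (differentiating) and 1487, 1585 and 1382 (neurons). Its neuron libraries were all above the others, by 0.56 ± 0.13 from differentiating progenitors (adjusted p = 0.00449) and 0.50 ± 0.13 from proliferating progenitors (adjusted p = 0.00639). Ndufa8 stood at 676, 654 and 519 (proliferating), 550, 632 and 531 (differentiating) and 776, 826 and 809 (neurons). Its neuron values did not overlap either progenitor group, with a rise of 0.50 ± 0.12 from differentiating progenitors (adjusted p = 0.00717) and 0.39 ± 0.12 from proliferating progenitors (adjusted p = 0.0192).

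Ndufa11, linked to the stability of respiratory supercomplexes, stood at 556, 557 and 451 (proliferating), 442, 541 and 417 (differentiating) and 706, 683 and 602 (neurons). The neurons were again above both progenitor groups with no overlap. The change was 0.51 ± 0.14 from differentiating progenitors (adjusted p = 0.0107) and 0.35 ± 0.14 from proliferating progenitors (adjusted p = 0.0481). With 1 library left out, the call against proliferating progenitors was lost in 7 of 9 fits for Ndufa11 and in 3 of 9 for Ndufa8, and replicates 2 and 3 alone did not give it for Ndufa11. With equal totals, the changes from proliferating progenitors to neurons became 0.21 for Ndufb9, 0.10 for Ndufa8 and 0.06 for Ndufa11, and none of these 3 passed, whereas Ndufaf3 stayed at 0.87 and passed. From differentiating progenitors to neurons, Ndufb9 still passed in limma (adjusted p = 0.036), and Ndufa8 (0.0659) and Ndufa11 (0.0757) did not. The authors' deposited table passed all 3 in that step, but against proliferating progenitors only Ndufb9 (0.011), not Ndufa8 (0.075) or Ndufa11 (0.14).

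Falling subunits of complex I were Ndufab1, Ndufa12, Ndufc2 and Ndufb11. Ndufab1, the mitochondrial acyl carrier protein that also serves fatty acid and lipoic acid synthesis, stood at 647, 547 and 477 (proliferating), 546, 517 and 520 (differentiating) and 371, 311 and 325 (neurons). The neurons lay below both progenitor groups, by -0.65 ± 0.13 from differentiating progenitors (adjusted p = 0.00211) and -0.72 ± 0.13 from proliferating progenitors (adjusted p = 0.000924). Ndufa12 stood at 539, 547 and 504 (proliferating), 575, 537 and 486 (differentiating) and 423, 395 and 410 (neurons). Its progenitor groups overlapped, and every neuron library was lower, with -0.38 ± 0.10 from differentiating progenitors (adjusted p = 0.00964) and -0.37 ± 0.10 from proliferating progenitors (adjusted p = 0.00849).

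Ndufc2, a membrane arm subunit, stood at 1341, 1240 and 1070 (proliferating), 1053, 929 and 944 (differentiating) and 970, 872 and 932 (neurons). Its proliferating progenitor libraries were above all others, and the differentiating progenitors and neurons overlapped, with a change from proliferating progenitors to neurons of -0.39 ± 0.11 (adjusted p = 0.00923). Ndufb11 stood at 1296, 1237 and 1052 (proliferating), 1235, 1177 and 902 (differentiating) and 875, 900 and 919 (neurons), with a change from proliferating progenitors to neurons of -0.41 ± 0.13 (adjusted p = 0.0229). Its differentiating progenitors overlapped both other groups. The calls of Ndufab1, Ndufa12 and Ndufc2 held in all 19 alternatives, and that of Ndufb11 was lost in 4 of 9 fits with 1 library left out. In the authors' deposited table, Ndufab1 passed between proliferating progenitors and neurons (adjusted p = 0.0015). Ndufa12 (0.14), Ndufc2 (0.094) and Ndufb11 (0.087) did not.

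Complex III had no tested gene past the threshold among 8 in any comparison. With the replicate block, Uqcr11 and Uqcrc2 fell between the progenitor groups, Uqcr11 and Uqcrc2 rose and Uqcr10 fell from differentiating progenitors to neurons, and Uqcrc2 and Uqcrh rose and Uqcr10 fell from proliferating progenitors to neurons. Uqcrc1, a core protein of the complex and its highest member per length, stood at 1563, 3622 and 2979 (proliferating), 1490, 3295 and 2549 (differentiating) and 1486, 3537 and 3128 (neurons). Replicate 1 was the lowest library of each group, and the groups overlapped throughout, with a change from proliferating progenitors to neurons of -0.01 ± 0.43 (adjusted p = 0.986). Its 95% interval without the block ran from -0.98 to 0.96, and with the replicate block the adjusted p was 0.859.

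Uqcrc2, the other core protein, shows what the pairing does. It stood at 1714, 2664 and 2387 (proliferating), 1547, 2520 and 2050 (differentiating) and 1995, 3104 and 2685 (neurons), so the groups overlapped while each replicate was higher in neurons than in differentiating progenitors of the same number. Its change there was 0.35 ± 0.23, with an adjusted p of 0.24 without the block and 9.2e-05 with it (9.2e-05 to 0.633 over 19 alternatives). Ndufb10 of complex I had the same layout, at 700, 1023 and 742 (differentiating) and 984, 1378 and 1096 (neurons). Its change there was 0.49 ± 0.21, with an adjusted p of 0.0728 without the block and 7.68e-05 with it (7.68e-05 to 0.248 over 19 alternatives).

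**Figure D3:**
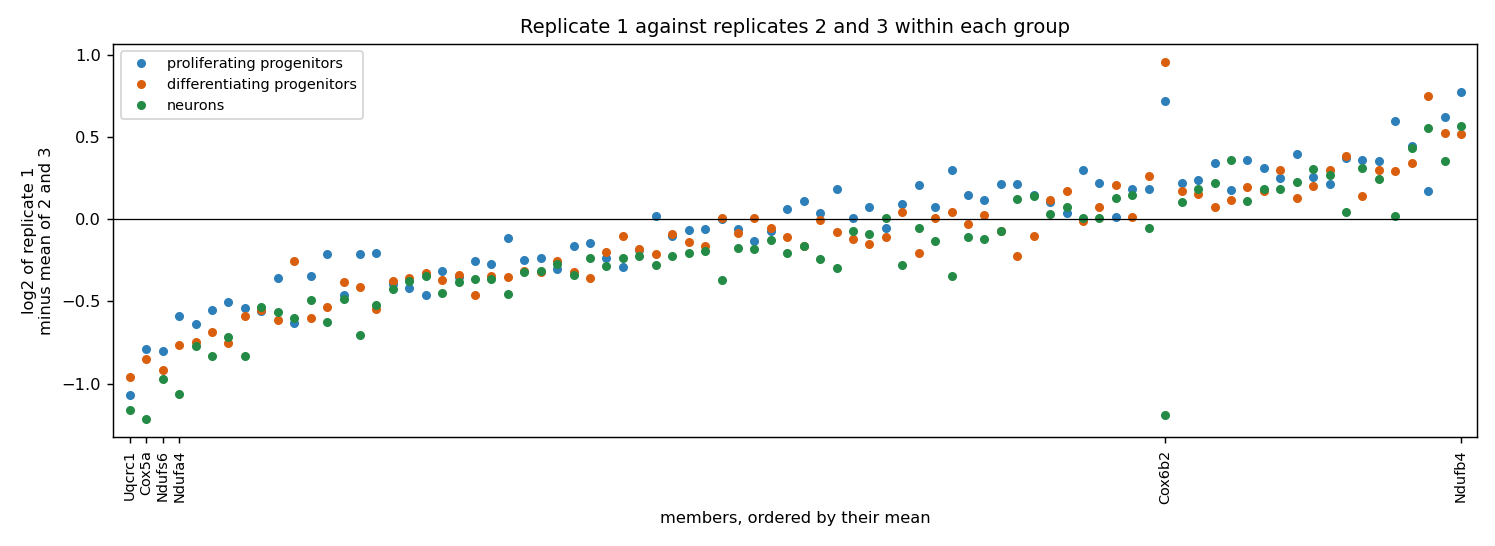
Log2 value of replicate 1 minus the mean log2 value of replicates 2 and 3 in each group (points by group), for the 82 tested members in order of their mean, with the members named in the text on the axis. The 3 groups mostly follow each other from Uqcrc1 on the left, at a mean of -1.06, to Ndufb4 on the right, at 0.62; Cox6b2, with low values, is the member where the groups spread most.

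Replicate 1 differed from replicates 2 and 3 in the same direction in all groups for most members, and by an amount that depended on the gene. It lay below the mean of the other 2 in all 3 groups for 37 of 82 members (45.1%, against 30.8% of all genes) and above it in all 3 groups for 23 (28%, against 30.2%). Averaged over groups, the log2 difference was -1.06 for Uqcrc1, -0.95 for Cox5a, -0.89 for Ndufs6 and -0.81 for Ndufa4, and 0.62 for Ndufb4. Across the 82 members, this difference had a Pearson r of 0.134 with the GC content of the transcripts and of 0.044 with the share of their 50-base stretches found in other genes or pseudogenes, given as descriptions. The cause of the difference was not tested. From replicates 2 and 3 alone, 0 members rose and 5 fell between the progenitor groups (19.9% and 17.8% of all genes), 12 rose and 5 fell from differentiating progenitors to neurons (30.6% and 31% of all genes), and 10 rose and 13 fell from proliferating progenitors to neurons (35.1% and 35.5% of all genes).

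Complex IV showed a fall in 2 of 14 tested genes between proliferating progenitors and neurons and a rise in none (31.1% and 32.2% of all genes). With the replicate block, Cox8a fell as well (adjusted p = 0.034), and Cox4i1 (0.00753), Cox5a (0.000564), Cox6b1 (0.0206) and Cox7a2 (0.0175) rose, which made 4 rising and 3 falling genes (38.7% and 39.5% of all genes). From differentiating progenitors to neurons, the block gave 6 rising genes (35.8% of all genes), where none passed without it (27.6%). These were Cox4i1, Cox5a, Cox6a1, Cox6b1, Cox6c and Cox7a2. Cox6b2, an isoform of subunit 6b best known from testis, had the largest log2 change of the 82 tested members. It stood at 73, 42 and 46 (proliferating), 48, 28 and 21 (differentiating) and 4, 9 and 12 (neurons). The neurons were below both progenitor groups, which overlapped. The change was -2.62 ± 0.44 from proliferating progenitors (adjusted p = 0.000623) and -1.86 ± 0.44 from differentiating progenitors (adjusted p = 0.00579), and both held in all 18 alternatives that tested the gene. Cox6b1, the common isoform, stood at 1580, 1612 and 1202 (proliferating), 1315, 1571 and 1224 (differentiating) and 1543, 1990 and 1807 (neurons). Its groups overlapped, and the change from differentiating progenitors to neurons was 0.38 ± 0.15 (adjusted p = 0.0606). Per length, Cox6b1 was at 2900 normalised counts per kb in proliferating progenitors and 3525 in neurons, against 97.4 and 15.1 for Cox6b2.

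Cox7c, the other falling subunit, stood at 209, 165 and 185 (proliferating), 195, 150 and 191 (differentiating) and 151, 122 and 122 (neurons). The neurons lay below the proliferating progenitors, with a change of -0.50 ± 0.17 (adjusted p = 0.0269), which was lost in 4 of 9 fits with 1 library left out. Its value is uncertain, since 23.0% of its 50-base stretches occur in other genes, 3 pseudogenes among them, and the same limit holds for Atp5h (36.9%), Ndufa12 (26.2%), Ndufb9 (23.4%) and Ndufb11 (17.5%).

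No other isoform of complex IV passed the threshold without the block. Cox4i1, the common isoform of subunit 4 and the highest member of complex IV per length, stood at 2696, 3347 and 2512 (proliferating), 2585, 3215 and 2351 (differentiating) and 2944, 3729 and 3169 (neurons), and the groups overlapped. Cox6a1, the form of subunit 6a found outside muscle, stood at 2285, 1890 and 1645 (proliferating), 2051, 1744 and 1414 (differentiating) and 2103, 2189 and 1899 (neurons). Here too every group overlapped the next, with a change from proliferating progenitors to neurons of 0.10 ± 0.16. Cox8a, the common isoform of subunit 8, stood at 1322, 1044 and 907 (proliferating), 1223, 1151 and 809 (differentiating) and 1103, 792 and 842 (neurons), with a change of -0.26 ± 0.20. The neuron values overlapped those of both progenitor groups.

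The other isoforms of subunit 7 and Ndufa4 did not pass the threshold without the block either. Cox7a2 stood at 1032, 1192 and 869 (proliferating), 952, 1342 and 909 (differentiating) and 1090, 1393 and 1256 (neurons). Cox7a2l, which joins complexes III and IV in supercomplexes, stood at 1304, 1109 and 929 (proliferating), 1303, 1350 and 1033 (differentiating) and 1291, 1064 and 1014 (neurons). Cox7a1, the form of heart and skeletal muscle, stood at 11, 11 and 8 (proliferating), 11, 11 and 15 (differentiating) and 12, 12 and 13 (neurons), near the filter. The groups of Cox7a2 and Cox7a2l overlapped in each comparison, and the values of Cox7a1 are too low to order. Cox7b stood at 754, 1122 and 678 (proliferating), 659, 1086 and 707 (differentiating) and 670, 1200 and 998 (neurons). Ndufa4, named for complex I and since placed in complex IV, stood at 931, 1558 and 1261 (proliferating), 815, 1526 and 1259 (differentiating) and 768, 1622 and 1583 (neurons). Both genes had replicate 2 as their highest library in every group.

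Cox4i2 and Ndufa4l2 did not pass the filter and are also known from mural cells of brain vessels. Cox4i2 stood at 14, 9 and 9 (proliferating), 0, 2 and 8 (differentiating) and 0, 0 and 2 (neurons). The authors' deposited table gave it a fold change of 0.06 between proliferating progenitors and neurons, with an adjusted p of 0.0071. Ndufa4l2 stood at 4, 11 and 14 (proliferating), 7, 6 and 6 (differentiating) and 5, 2 and 1 (neurons). Without the filter on low values, limma called both genes lower in neurons than in proliferating progenitors. The summed endothelial and mural markers (11 genes, 0 of them at 0 in all libraries of a group) lay at 645 to 1465, 393 to 446 and 116 to 171 in the 3 groups. Their part in these low values was not tested.

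ATP synthase had 13 tested genes, and all 13 had a log2 change below 0 from proliferating to differentiating progenitors. So did 64 of the 82 tested members and 8197 of the 15828 genes tested. Without proliferating progenitor replicate 2, the members below 0 were 44 of 82. The median of ATP synthase was -0.14, beside -0.08 over all members and -0.02 over all genes. Of the 13 genes only Atp5g1 passed, and with the replicate block Atp5a1, Atp5b, Atp5c1 and Atp5g3 passed with it. Atp5g1, Atp5g2 and Atp5g3 encode the same c subunit of the rotating ring with different import sequences. Atp5g1 stood at 270, 255 and 205 (proliferating), at a mean of 170 ± 11.2 (differentiating) and at 207, 174 and 190 (neurons). The differentiating progenitors were below every proliferating progenitor library, and the neurons overlapped both. The change between the progenitor groups was -0.51 ± 0.15 (adjusted p = 0.0324), and it was lost in 5 of 9 fits with 1 library left out. Atp5g3, the highest of the 3 per length as counted here, stood at 2274, 3069 and 2602 (proliferating), 1960, 2670 and 2401 (differentiating) and 2085, 2959 and 2749 (neurons), and its groups overlapped. The place of Atp5g2 in this order is uncertain, since 38.3% of its 50-base stretches occur in other genes.

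Atp5a1 and Atp5b of the catalytic head did not pass the threshold in a comparison with neurons, with or without the block. With equal totals, both fell from proliferating progenitors to neurons in limma, Atp5a1 by -0.33 (adjusted p = 0.0203) and Atp5b by -0.35 (adjusted p = 0.00247). In that scaling 8 of the 13 ATP synthase genes fell, beside 6607 of all 15828 genes. Atp5a1, the alpha subunit and the highest of the complex per length, stood at 12812, 15949 and 13383 (proliferating), 11671, 14313 and 12207 (differentiating) and 12195, 14772 and 13785 (neurons). Its groups overlapped, with a change from proliferating progenitors to neurons of -0.05 ± 0.12 (95% interval -0.32 to 0.23). The rank per length rests on the deposited lengths of 3135 bases for Atp5a1 and 4237 for Atp5b. By counts alone Atp5b was higher, at a mean of 17798 against 14048 in proliferating progenitors.

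Atp5o, Atp5e and Atp5h of ATP synthase passed in a comparison with neurons. Atp5o, the stalk subunit OSCP, stood at 2321, 2943 and 2149 (proliferating), 1921, 2771 and 2176 (differentiating) and 2622, 3760 and 3445 (neurons), and rose from differentiating progenitors to neurons by 0.52 ± 0.18 (adjusted p = 0.0394). Its groups overlapped, 47.6% of its 50-base stretches occur in other genes, and the call was lost in 4 of 9 fits with 1 library left out. Atp5e, the epsilon subunit, stood at 1466, 1331 and 977 (proliferating), 1234, 1150 and 1007 (differentiating) and 993, 967 and 877 (neurons), and Atp5h, subunit d of the stalk, at 769, 817 and 782 (proliferating), 701, 789 and 724 (differentiating) and 675, 702 and 642 (neurons). The neurons overlapped the proliferating progenitors for Atp5e and lay below them for Atp5h. The mean of Atp5e fell from 1258 ± 253 to 946 ± 60.9 between proliferating progenitors and neurons (-0.39 ± 0.15, adjusted p = 0.0474), and that of Atp5h from 789 ± 24.8 to 673 ± 30.1 (-0.23 ± 0.09, adjusted p = 0.0409). Each of these 2 calls was lost in 7 of 9 fits with 1 library left out. With the replicate block, Atp5c1, Atp5f1 and Atp5g3 rose beside Atp5o and Atp5e fell from differentiating progenitors to neurons, and Atp5o rose and Atp5g1 and Atp5j fell beside Atp5e and Atp5h from proliferating progenitors to neurons. Atp5g2, Atp5l2 and Atp5l-ps1 were below 10 in all 9 libraries, and Atp5l was above it in 1 library. Of the 50-base stretches of Atp5l, 84.8% occur in other genes, 12 pseudogenes among them, and 38.3% of those of Atp5g2. Their low counts are thus uncertain as measures of expression, and the part of shared sequence in them was not tested.

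Of the other genes that match the naming pattern, Cox4nb is a subunit of the endoplasmic reticulum membrane complex and lies beside Cox4i1. It stood at 2143, 2232 and 2025 (proliferating), 2093, 1870 and 1760 (differentiating) and 1918, 1831 and 1680 (neurons). Its neurons lay below its proliferating progenitors, and it fell from 2133 ± 104 in proliferating progenitors to 1810 ± 120 in neurons (-0.24 ± 0.09, adjusted p = 0.0466). The call was lost in 6 of 9 fits with 1 library left out. Atp5s and Atp5sl did not pass in any comparison.

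Whether the counting used strand is not known from the sources, so overlapping genes limit some of these values. In GENCODE M21, exons of 7 of the 19 members that passed in any comparison overlap exons of another gene. Ndufaf3 shares bases with Impdh2, Ndufa11 with Vmac, Ndufb11 with Rbm10, Ndufab1 with Gm44986, Atp5o with D430001F17Rik and Gm15976, and Cox4nb with Cox4i1 on the opposite strand. Ndufb9 shares bases with Gm49356, Cox4nb with Gm27021 and Atp5o with another entry of its own name on the same strand, which counting by strand would not separate. The genes Sdha, Sdhc, Sdhd, Ndufaf4, Ndufa12, Ndufa8, Ndufc2 and Cox6b2 overlap none, nor do the other 4 of the 19. Pseudogenes matched 32 of the 82 tested members in at least 1 stretch of 50 bases. The median share of 50-base stretches found in any other gene, pseudogene or not, was 1.2%.

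Subunits encoded by mitochondrial DNA were counted in the same libraries, 8 of 13 in the table. Between proliferating progenitors and neurons, 5 rose (32.2% of all genes), namely mt-Nd4, mt-Cytb, mt-Nd2, mt-Co1 and mt-Nd1, and mt-Nd6 fell (31.1% of all genes), with a median log2 change of 0.42. mt-Nd4, a proton-pumping subunit of complex I, stood at 19167, 18944 and 17622 (proliferating), 21245, 22696 and 24107 (differentiating) and 33137, 32302 and 31708 (neurons). The groups did not overlap and rose in this order, with 0.80 ± 0.08 between the first and the last (adjusted p = 1.82e-05). mt-Cytb, the core of complex III, rose from 45702 ± 4687 to 74812 ± 7352 (0.71 ± 0.11, adjusted p = 0.000374). With equal totals, mt-Nd4 and mt-Cytb were the only 2 that still rose, and the median was 0.13. mt-Nd6 is the only protein gene on the other strand of the mitochondrial genome, and it fell from 1314 ± 211 to 911 ± 35.2 (-0.51 ± 0.14, adjusted p = 0.0112). Whether the mitochondrial and nuclear subunits differ as groups was not tested.

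**Figure D4:**
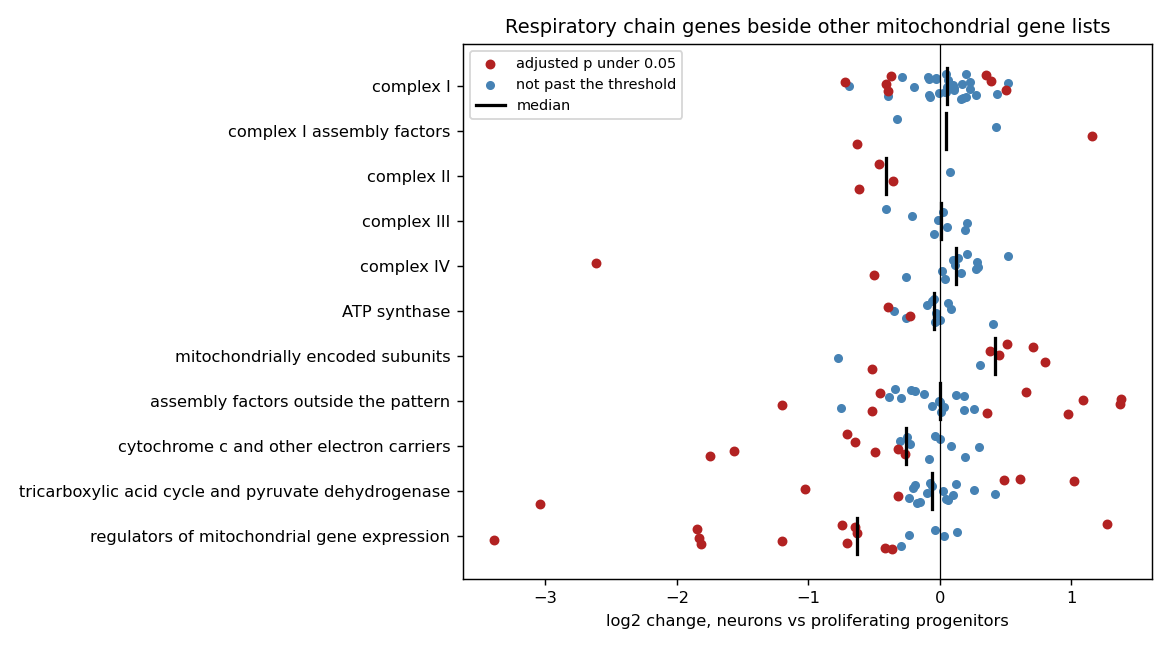
Log2 change from proliferating progenitors to neurons of each tested gene (points) in the complexes and in other mitochondrial gene lists, with the median of each as a black bar. Medians of complexes I, III, IV and ATP synthase lie near 0, that of complex II at -0.41, that of the mitochondrially encoded subunits at 0.42 and that of the regulators at -0.63.

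Of 17 listed regulators of mitochondrial gene expression, 11 fell and 1 rose between proliferating progenitors and neurons (31.1% and 32.2% of all genes), with a median log2 change of -0.63, and the list was chosen with earlier results of these data known. Twistnb, 1 of the 11, is a subunit of RNA polymerase I and not a mitochondrial regulator. Gabpb2, a beta subunit of GABP, stood at 3658, 3449 and 3462 (proliferating), 3827, 2899 and 3213 (differentiating) and 1085, 880 and 983 (neurons). Its neuron libraries were below both progenitor groups (-1.85 ± 0.12, adjusted p = 8.79e-07). Tfb1m, the methyltransferase of mitochondrial ribosomal RNA, stood at 188, 250 and 236 (proliferating), at a mean of 154 ± 22 (differentiating) and at 65, 62 and 61 (neurons). The 3 groups of Tfb1m did not overlap, and the fall from the first to the last was -1.82 ± 0.17 (adjusted p = 1.2e-05).

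Ppargc1a, the coactivator known for driving mitochondrial biogenesis, stood at 589, 660 and 509 (proliferating), 229, 155 and 141 (differentiating) and 159, 174 and 156 (neurons). It fell between the progenitor groups by -1.76 ± 0.19 (adjusted p = 0.000238) with no overlap, and the last 2 groups overlapped. Pprc1, a related coactivator, fell between the progenitor groups by -0.68 ± 0.11 (adjusted p = 0.00239). Esrra, a nuclear receptor that acts with these coactivators, went the other way, at 637, 574 and 609 (proliferating), 820, 884 and 1020 (differentiating) and 1529, 1377 and 1496 (neurons). Its groups did not overlap, and the rise from proliferating progenitors to neurons was 1.27 ± 0.10 (adjusted p = 4.07e-06). Gabpb1 fell from differentiating progenitors to neurons by -0.74 ± 0.08 (adjusted p = 4.79e-05). With equal totals, 13 of the 17 fell and 1 rose.

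Of 25 assembly factors outside the naming pattern, 6 rose and 3 fell between proliferating progenitors and neurons (32.2% and 31.1% of all genes, as for the lists that follow), with a median log2 change of -0.0016. Ecsit, an assembly factor of complex I, rose from 376 ± 17.6 to 801 ± 30 (1.09 ± 0.09, adjusted p = 4.81e-06), and Cox19, of complex IV, from 521 ± 87.2 to 1357 ± 218 (1.38 ± 0.15, adjusted p = 2.77e-05). Nubpl, which delivers iron-sulphur clusters to complex I, fell from 170 ± 25 to 74 ± 16.1 (-1.20 ± 0.23, adjusted p = 0.00133), and Taco1, a translational activator of mt-Co1, from 212 ± 5.03 to 149 ± 7.37 (-0.51 ± 0.12, adjusted p = 0.00377).

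Among 16 genes of cytochrome c and other electron carriers, 7 fell and 0 rose between proliferating progenitors and neurons at limma's adjusted threshold, beside 31.1% and 32.2% of all genes. Gpd2, the mitochondrial glycerol 3-phosphate dehydrogenase that feeds ubiquinone, stood at 1661, 1759 and 1526 (proliferating), 1087, 1091 and 984 (differentiating) and 448, 550 and 473 (neurons). The 3 groups were apart, with -1.75 ± 0.10 from the first to the last (adjusted p = 6.01e-07). Coq2, of ubiquinone synthesis, fell from 1051 ± 109 to 646 ± 79.8 (-0.70 ± 0.14, adjusted p = 0.0018). Etfdh, which like complex II passes electrons to ubiquinone, fell from differentiating progenitors to neurons by -0.40 ± 0.09 (adjusted p = 0.00556).

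In the tricarboxylic acid cycle and pyruvate dehydrogenase list, 3 of 21 tested genes rose and 3 fell between proliferating progenitors and neurons. Suclg2, the GTP-forming subunit of the enzyme that makes succinate, stood at 381, 489 and 378 (proliferating), 249, 279 and 222 (differentiating) and 51, 46 and 51 (neurons). Its groups did not overlap, and the fall from the first to the last was -3.04 ± 0.15 (adjusted p = 2.21e-07). Idh2, the NADP-linked isocitrate dehydrogenase, stood at 2919, 3568 and 3332 (proliferating), 3702, 4581 and 4023 (differentiating) and 1388, 1807 and 1638 (neurons), lowest in neurons (-1.35 ± 0.13 from differentiating progenitors, adjusted p = 1.77e-05). Brp44l and Brp44, the subunits of the mitochondrial pyruvate carrier, rose by 1.02 ± 0.18 (adjusted p = 0.000911) and 0.49 ± 0.11 (adjusted p = 0.00366). Glycolysis genes had 5 rising and 15 falling of 23, with a median of -0.82. Aldoc, an aldolase of radial glia, fell by the most of them (-7.44 ± 0.17, adjusted p = 1.11e-08), and Pfkp, the platelet form of phosphofructokinase, rose by the most (4.35 ± 0.18, adjusted p = 7.6e-08). Of 9 genes of nucleotide and phosphate exchange, 3 rose and 3 fell. Atpif1, the inhibitor that binds ATP synthase, rose from 1568 ± 141 to 3799 ± 261 (1.28 ± 0.11, adjusted p = 7.72e-06), and Slc25a5, an ADP/ATP carrier, fell from 5238 ± 760 to 1734 ± 81.7 (-1.58 ± 0.14, adjusted p = 1.02e-05).

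Summed markers of red blood cells, microglia and meninges were highest in proliferating progenitors, and those of intermediate progenitors in differentiating progenitors. The summed red blood cell markers (10 genes) lay at 103726 to 259037 in proliferating progenitors, 226 to 2097 in differentiating progenitors and 200 to 284 in neurons, and the summed microglia markers (11 genes, C1qa and Tyrobp at 0 in all neuron libraries) at 197 to 283, 115 to 152 and 28 to 41. Meningeal markers (5 genes, Lum at 0 in all differentiating progenitor libraries) summed to 221 to 2947, 78 to 155 and 11 to 48. The summed intermediate progenitor markers (6 genes) were at 22257 to 26373, 57539 to 73685 and 10292 to 13274. The part of these cells in the members that were higher in proliferating progenitors was not tested, and the mixture of cells in a gate cannot be told apart from a change within a cell.

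Likeness to single genes was measured by Pearson's r of log2 values over the 9 libraries among genes that are no members, as a description. Ndufaf3, the rising member with the smallest adjusted p, was most like Ttc9b (r = 0.993), Suox (0.990) and Pcdhb11 (0.988). Cox6b2, the falling member with the smallest adjusted p, was most like Mir675 (0.985), Enkur (0.977) and Eri1 (0.977). The points share libraries and the replicate differences described above.

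The authors' deposited table gave fewer calls. At its adjusted p under 0.05, 4 members were higher and 2 lower in neurons than in differentiating progenitors (23.1% and 21.8% of the genes tested here), and 2 were higher and 5 lower in neurons than in proliferating progenitors (28.1% and 26.6%). These counts cover the 82 tested members, and Cox4i2 of the other 6 was lower as well.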

How the data were processed

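RNA-seq of sorted mouse cortical cells was analysed in 9 libraries, 3 per group, grouped by the sample titles. The deposited table gives, per the file headers and the submitters' processing notes, normalised read counts per gene on Ensembl 61 genes, which the authors rounded to whole numbers and which were treated as a score, not as raw counts. Per the submitters' processing notes, the authors used CASAVA 1.8.0, BWA, bedtools 2.11, DESeq 1.8.1 and mm9. Alignment settings, strand use and raw read totals are not given in the sources used here. Of the table, the authors' deposited ratio (fold change) and adjusted p-value columns were used only where named. Gene length is the deposited length in bases. For some members, such as Ndufb7 and Atp5b, it exceeds that of their coding transcripts in GENCODE M21, so ranks per length are uncertain.

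Values were tested as log2(value + 1) in limma 3.58.1 (R 4.3.3; moderated by a trend on intensity; 1 fit over all 9 libraries) on the 15828 genes at 10 or more in 3 or more libraries, with Benjamini-Hochberg adjustment over all of them. Python 3.11.15 made the other tables. The method was tested on simulated data without differences between replicate numbers, so that test does not cover the pairing seen in these libraries. Intervals are from the fit without the replicate block and cover the spread between libraries, differences between replicate numbers included. Same-numbered libraries of different groups deviated together (correlations of 0.507 to 0.767 for 9 pairs, against -0.64 to 0.428 for the other 18), which is why counts with a replicate block are printed. Alternatives were total-sum and median-ratio scaling, 2 other pseudocounts, no filter and a higher filter, no intensity trend, the 2 groups alone, the replicate block, replicates 2 and 3 alone, and leaving out each library.

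The members and lists were chosen with earlier results of these data known. Library values are given for the highest member per length in each complex, the called members with the smallest adjusted p or the largest change, and isoform families. Genes of other lists are those called with small adjusted p. Some further genes (Uqcrc2, Ndufb10, Ndufaf1, Ndufaf2, Sdhb) were chosen after their values were seen.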

Additional observations from a re-analysis of the deposited data

How the results depend on the processing

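No called member changed direction under the alternatives tried, while the members' medians in both comparisons with neurons turned below 0 with total-sum scaling, and that between proliferating progenitors and neurons also in 4 of 9 fits with 1 library left out. Of 28 called pairs of member and comparison, 14 kept their call in all alternatives, and 55 of 252 fits with 1 library left out lost a call. Total-sum scaling gave 4 lower members between the progenitor groups (2255 of all genes). It gave 2 higher and 17 lower from differentiating progenitors to neurons (3383 and 5588 of all genes). From proliferating progenitors to neurons it gave 1 higher and 30 lower (3903 and 6607 of all genes). The replicate block gave 2 higher and 15 lower, 26 higher and 13 lower, and 18 higher and 22 lower in the same order. Replicates 2 and 3 alone gave 5 lower between the progenitor groups (17.8% of all genes), 12 higher from differentiating progenitors to neurons (30.6%) and 10 higher from proliferating progenitors to neurons (35.1%). The progenitor groups alone gave 1 lower, beside 1578 lower calls over all genes of that fit. The causes were not tested. With 1 library left out, the counts ranged from 0 to 0 higher and 0 to 4 lower between the progenitor groups, from 4 to 8 higher and 3 to 5 lower from differentiating progenitors to neurons, and from 2 to 7 higher and 9 to 13 lower from proliferating progenitors to neurons. Over all genes, these fits gave 1568 to 2187 higher and 1060 to 1877 lower between the progenitor groups. They gave 3546 to 4474 and 3718 to 4209 in the second comparison, and 4347 to 5199 and 4393 to 5003 in the third. Between the progenitor groups, 0 members were lower without proliferating progenitor replicate 1 or 2 or differentiating progenitor replicate 3, 1 without differentiating progenitor replicate 2 or neuron replicate 3, and 4 without proliferating progenitor replicate 3. In the same order of libraries, lower calls over all genes were 1417, 1060, 1109, 1074, 1573 and 1147. From differentiating progenitors to neurons, 8 were higher without differentiating progenitor replicate 2 (4064 of all genes). From proliferating progenitors to neurons, 2 were higher without proliferating progenitor replicate 3 (4792) or neuron replicate 2 (4347) and 7 without neuron replicate 1 (4711). The 3 libraries per group limit the precision, and raw depth was not used here.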
